A study of Homo sapiens with 4 samples.

Results

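The genes for the E proteins TCF3, TCF4 and TCF12, for their inhibitors ID1, ID2 and ID3, and for the related factor LYL1 were followed in K562 cells, an established human erythroleukemia line, that overexpress the S34F mutant of the splicing factor U2AF1. All 4 libraries carried this overexpression, so no cells with normal U2AF1 stood beside them. In 2 libraries the cells had received the solvent DMSO, and in 2 they had received SF1-8, a small molecule directed at the UHM domain of U2AF1, at 30 μM for 48 h by the labels. Ribosomal RNA had been removed from total RNA before sequencing. The labels do not say whether the 2 libraries of a group came from separate cultures, so each p-value measures the spread between these libraries, which may be technical.

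The 7 members were chosen by symbol, and TCF4 was among them because it had been labelled as changed between SF1-8 and DMSO in these same libraries. Its difference is therefore given as a description, with no test. Each symbol was read from the entry that named it with the highest mean count, which gave 7 entries of the 62778 in the table that name a gene. All 7 passed the filter on low counts, as did 26167 entries in all, and each of the 7 entries named 1 gene only.

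E proteins are basic helix-loop-helix transcription factors that bind the E-box, a short DNA motif, as dimers with each other or with a tissue-restricted partner such as TAL1 or LYL1. ID proteins have the helix-loop-helix but lack the basic region that touches DNA, so a dimer of an E protein and an ID protein does not bind. In red cell precursors, E proteins and TAL1 form a complex with LMO2, LDB1 and GATA1, and in lymphocytes and plasmacytoid dendritic cells E proteins drive the genes of the lineage. ID genes are well-known targets of BMP signalling through SMAD proteins.

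The E-box can be written CANNTG, and CAGCTG and CAGGTG are the forms that E proteins are known to favour. Windows from 250 bases before to 50 bases after each start site listed by RefSeq (GRCh38.p14) were searched on both strands for these motifs, both preferred forms being cases of CANNTG. There were 20 such windows for the 7 genes, 10 of them at TCF4 and 5 at TCF12, and each of the other genes had 1. An E-box was found in 7 windows of TCF4, in 2 of TCF12 and in that of ID2, but in none of TCF3, LYL1, ID1 or ID3. By comparison, 68.7% of all 35116 windows held CANNTG, 17.9% held CAGCTG and 20.6% held CAGGTG. Of the members' windows, the one at ID2 held CAGCTG, and none held CAGGTG. The windows printed here are those of TCF4 and TCF12 that contain CACGTG, since these were the 2 members with the largest differences, and that of ID2. The E-box is in capitals, the TCF4 window lies on the minus strand at chr18:55588568-55588867, and those of TCF12 and ID2 lie on the plus strand at chr15:56917840-56918139 and chr2:8681806-8682105.
TCF4: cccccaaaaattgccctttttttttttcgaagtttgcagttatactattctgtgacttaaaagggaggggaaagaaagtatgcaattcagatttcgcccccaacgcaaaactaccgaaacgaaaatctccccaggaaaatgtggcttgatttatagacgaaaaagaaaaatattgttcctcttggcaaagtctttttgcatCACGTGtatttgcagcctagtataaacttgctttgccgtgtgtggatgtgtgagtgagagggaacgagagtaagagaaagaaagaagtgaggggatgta
TCF12: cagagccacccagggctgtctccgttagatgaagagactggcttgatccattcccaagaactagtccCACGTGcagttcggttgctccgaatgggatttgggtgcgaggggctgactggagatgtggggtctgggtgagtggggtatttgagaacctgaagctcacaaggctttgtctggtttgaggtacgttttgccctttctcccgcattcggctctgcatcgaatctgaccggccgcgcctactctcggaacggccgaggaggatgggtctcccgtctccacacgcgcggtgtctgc
ID2: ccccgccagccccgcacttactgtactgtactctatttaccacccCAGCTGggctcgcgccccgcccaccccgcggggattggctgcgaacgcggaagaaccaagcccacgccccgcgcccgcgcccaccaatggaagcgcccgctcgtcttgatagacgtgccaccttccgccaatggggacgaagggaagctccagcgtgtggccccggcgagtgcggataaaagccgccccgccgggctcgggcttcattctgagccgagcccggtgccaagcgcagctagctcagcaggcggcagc
The motif began 49 bases before the start site in TCF4, 183 before it in TCF12 and 205 before it in ID2. The deposited values are per gene, so which of these start sites was in use is not known from them. The TCF12 start site, at 56918090, and its whole window lie outside the entry of TCF12, which begins at 56918623.

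The total count was between 45522905, in DMSO 1, and 67554610, in SF1-8 1, and entries of ribosomal RNA took 10.99% to 14.05% of the named counts. Levels are given as FPKM (fragments mapped, scaled by gene length and sequencing depth), and differences as log2 fold changes of SF1-8 over DMSO from the counts by edgeR, each with its standard error (SE) and 95% confidence interval. The erythroleukemia label was checked against 10 marker genes held in 8 entries. The transferrin receptor gene TFRC had between 95.7 and 115.6 FPKM, and the erythroid factor GATA1 between 75.9 and 79.1. None of these 8 entries passed the adjusted threshold, and 7 of them had a log2 fold change below 0. The endothelial markers CDH5, VWF and KDR, the myeloid markers MPO and ELANE and the megakaryocyte markers GP9 and PF4 were listed at 0 in every library. Other genes of the same lists were not at 0. PECAM1, of endothelial cells and platelets, had 0.959 to 1.17 FPKM, LYZ, the lysozyme gene of myeloid cells, had 4.08 to 5.80, and ITGA2B, of megakaryocytes, had 0.278 to 0.385. The entry of ITGB3, a further megakaryocyte marker, also names EFCAB13 and AC068234. Of 4 markers of plasmacytoid dendritic cells, the highest value in any library was 0.133 FPKM, for IL3RA.

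TCF4 was above its DMSO level in both SF1-8 libraries, TCF12 lay higher in both without passing the adjusted threshold, and the other 5 genes differed little. Over all entries tested, 11 passed an adjusted p of 0.05 in the quasi-likelihood test of edgeR (Benjamini-Hochberg adjustment over all of them), which is 0.0420%. Of these, 5 were higher with SF1-8 (0.0191%) and 6 lower (0.0229%). None of the 6 members that could be tested was among them. At an unadjusted p under 0.05, 1132 entries differed (4.33%), and TCF12 was the 1 of the 6 members among them. No member was below 0.05 unadjusted when libraries were scaled by their total alone, by limma on FPKM, or without SF1-8 2, and TCF3 joined TCF12 without DMSO 2. In bulk RNA, fewer cells of a type and less RNA per cell cannot be told apart.

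**Figure D1:**
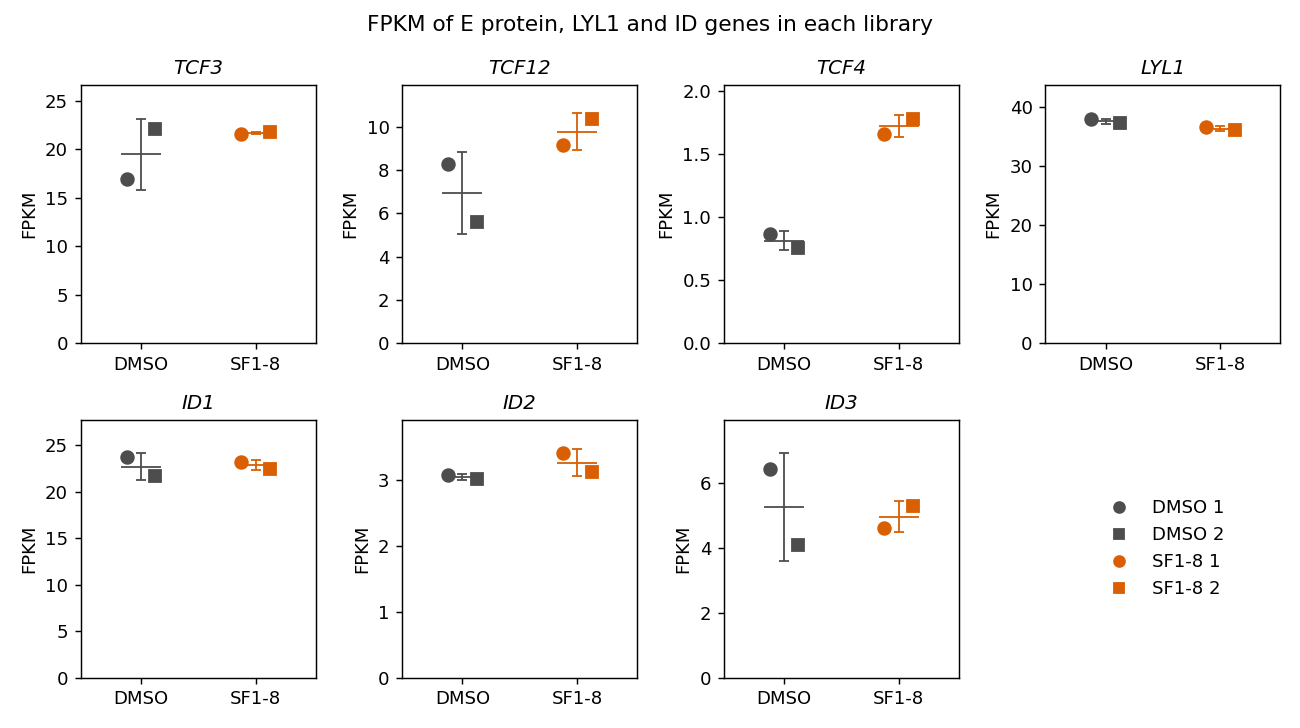
FPKM of each gene (vertical axes, each from 0) in the 2 DMSO libraries (grey) and the 2 SF1-8 libraries (orange), with circles for replicate 1, squares for replicate 2, and lines and bars for the mean and SD (n = 2). The SF1-8 libraries lie above both DMSO libraries for TCF4 (1.66 and 1.78 against 0.867 and 0.757), TCF12 and ID2, below them for LYL1, and between or across them for TCF3, ID1 and ID3.

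TCF4, an E protein best known for its part in plasmacytoid dendritic cell and B cell development, had 0.867 FPKM in DMSO 1 and 0.757 in DMSO 2, against 1.66 and 1.78 in SF1-8 1 and 2. The 2 groups did not overlap, and the gap between them was wider than the spread within either. In estimated counts, the libraries held 1477 and 1801 in DMSO and 4060 and 4209 in SF1-8. The log2 fold change was 1.10 (SE 0.0974), or 2.15-fold, and it stayed between 1.05 and 1.16 when each library was left out in turn. Of the 26167 entries tested, 850 had a log2 fold change at least as large. Since TCF4 was chosen on this contrast in these libraries, these values describe it and do not test it. TCF4 lies on the minus strand of chromosome 18, and its entry reached from 55222185 to 55636027 (hg38).

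The TCF4 locus held other entries as well. A 240-base stretch inside the gene, assembled without a strand, had counts of 27 and 3 in DMSO and 0 and 0 in SF1-8, and a stretch of 343 bases had 52 and 18 against 3 and 14. Both were lower in the SF1-8 libraries, but most of their DMSO counts were in DMSO 1. DMSO 2 had 3 and 18, close to the 0 and 14 of SF1-8 2. DMSO 1 also had the largest share of counts in entries without a strand, 0.703% against 0.513% to 0.532% in the other libraries. Over the 4 libraries together the 2 stretches came to 0.260% and 0.753% of the count of TCF4. The antisense genes TCF4-AS1 and TCF4-AS2 had counts of at most 8 in any library. MIR4529, a microRNA gene within the locus, was listed at 0 throughout.

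TCF12, also called HEB, is an E protein known from T cell and muscle development. It had 8.28 and 5.6 FPKM in DMSO 1 and DMSO 2, and 9.19 and 10.4 in SF1-8 1 and SF1-8 2. Both SF1-8 libraries were above both DMSO libraries, but DMSO 1 lay nearer to SF1-8 1 than to DMSO 2. TCF12 had a log2 fold change of 0.53 (SE 0.175, 95% confidence interval 0.087 to 0.98), with an adjusted p of 0.970 by edgeR. It was 0.32 without DMSO 2 and 0.79 without DMSO 1, so its size depended on which control library was kept. Its entry covers 56918623 to 57299281 on the plus strand of chromosome 15.

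TCF3, the gene of E12 and E47, is known as the E protein needed for early B cells. It had 16.9 and 22.1 FPKM in DMSO and 21.6 and 21.8 in SF1-8. DMSO 1 was low, and the remaining libraries lay close together, so the groups overlapped. The log2 fold change of 0.18 (SE 0.159, 95% confidence interval -0.23 to 0.58, adjusted p = 0.970 by edgeR) turned to -0.039 without DMSO 1 and was 0.43 without DMSO 2. A shorter entry on the opposite strand inside TCF3 (2450 bases) had counts between 233 and 275, and without knowledge of how strand was used its reads cannot be told apart from those of the gene. The entry of TCF3 is on the minus strand of chromosome 19 at 1609290 to 1652615.

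LYL1, a class II helix-loop-helix factor closely related to TAL1, pairs with E proteins in blood stem cells and was first found through leukemia. It had the highest level of the 7 genes, with 37.9 and 37.3 FPKM in DMSO and 36.6 and 36.0 in SF1-8. Both SF1-8 libraries lay just below both DMSO libraries on the FPKM scale. LYL1 had a log2 fold change of -0.022 (SE 0.0703, 95% confidence interval -0.20 to 0.16, adjusted p = 0.986 by edgeR). It was 0.012 without DMSO 2 and 0.00085 without SF1-8 2, so its sign was not settled. The entry, at 13099033 to 13103161 on the minus strand of chromosome 19, meets the end of NFIX, whose own counts differed between the DMSO libraries (796 and 2481).

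ID1, the most abundant of the ID genes here, is known as a direct target of BMP signals. It had 23.7 and 21.7 FPKM in DMSO and 23.2 and 22.5 in SF1-8, so both SF1-8 libraries lay between the DMSO libraries. The log2 fold change was 0.039 (SE 0.0909, 95% confidence interval -0.19 to 0.27, adjusted p = 0.981 by edgeR). It was -0.0091 when libraries were scaled by their total alone, and 0.013 without SF1-8 1 and 0.073 without SF1-8 2. ID3, another inhibitor of this family, had 6.41 and 4.07 FPKM in DMSO and 4.61 and 5.28 in SF1-8. The DMSO libraries again enclosed the SF1-8 libraries, here with a much wider gap. Its log2 fold change was -0.045 (SE 0.235, 95% confidence interval -0.64 to 0.55, adjusted p = 0.992 by edgeR), with 0.27 without DMSO 1, -0.30 without DMSO 2 and 0.049 without SF1-8 1.

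ID2, known for its need in natural killer and innate lymphoid cells, had 3.09 and 3.03 FPKM in DMSO and 3.41 and 3.12 in SF1-8. Both SF1-8 libraries were above both DMSO libraries, although SF1-8 2 exceeded DMSO 1 by little. ID2 had a log2 fold change of 0.12 (SE 0.152, 95% confidence interval -0.27 to 0.51, adjusted p = 0.970 by edgeR). It was 0.052 without SF1-8 1 and 0.19 without SF1-8 2. ID1 lies on the plus strand of chromosome 20 at 31602767 to 31606515, ID2 on the plus strand of chromosome 2 at 8678845 to 8684453, and ID3 on the minus strand of chromosome 1 at 23557926 to 23559501. ID4, the remaining gene of the family, had counts of 4 and 0 in DMSO and 4 and 0 in SF1-8 and did not pass the filter on low counts.

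By FPKM, the lower SF1-8 library exceeded the higher DMSO library in 2 of the 6 members other than TCF4, and the SF1-8 libraries lay below the DMSO libraries in 1. Over all entries tested the corresponding shares were 14.2% and 20.0%. Of the 26167 entries, the middle 50% had log2 fold changes between -0.30 and 0.15, with a median of -0.011. LYL1, ID1, ID2 and ID3 lay within that range, TCF3 lay just above it and TCF12 further above, under the 95th percentile of 0.86.

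**Figure D2:**
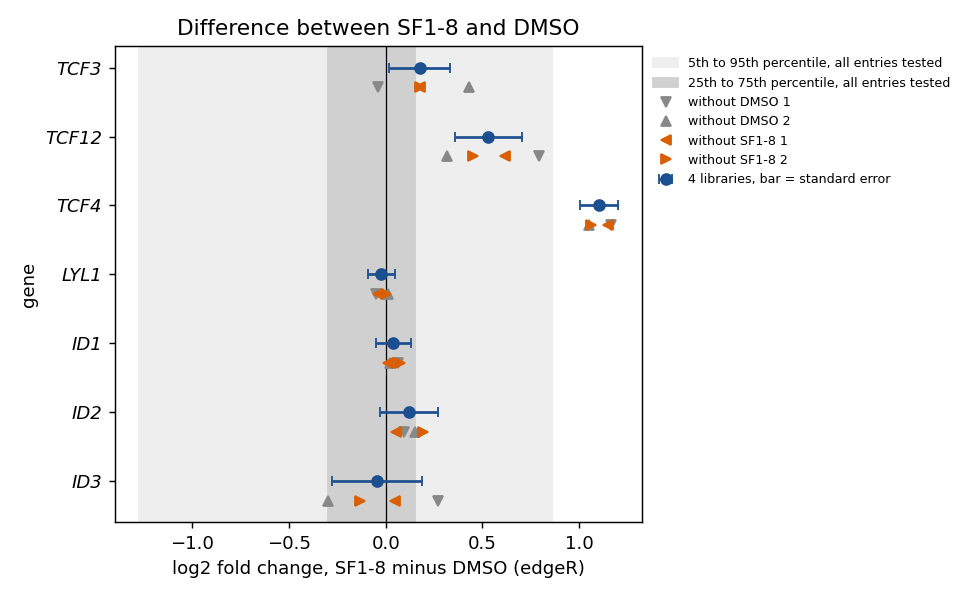
Log2 fold change of SF1-8 over DMSO (horizontal axis) for each gene, from all 4 libraries with its standard error (blue) and with each library left out (triangles), over bands for the 5th to 95th and the 25th to 75th percentile of all 26167 entries. TCF4, chosen on this contrast, stays between 1.05 and 1.16, TCF12 between 0.32 and 0.79, and the values of TCF3, LYL1 and ID3 fall on both sides of 0.

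The levels of the E protein genes were also summed, as were those of the ID genes. The E protein sum was 26.0 and 28.4 FPKM in DMSO and 32.46 and 33.96 in SF1-8, and it was higher in both SF1-8 libraries. The ID sum was 33.2 and 28.8 in DMSO and 31.2 and 30.9 in SF1-8, and here the groups overlapped. The ratio of the ID sum to the E protein sum was thus 1.27 and 1.01 in DMSO (1.14 ± 0.187, SD, n = 2) and 0.963 and 0.909 in SF1-8 (0.936 ± 0.0380, SD, n = 2). Both SF1-8 ratios were lower, while the distance between the DMSO ratios was larger than that between DMSO 2 and either SF1-8 library. This score was formed over genes chosen with results known, and no test was made of it.

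TCF3 supplied most of the E protein sum in every library, from 64.1% in SF1-8 2 to 77.7% in DMSO 2. TCF12 supplied 31.8% and 19.7% in DMSO, and 28.3% and 30.6% in SF1-8. The share of TCF4 was 3.33% and 2.66% in DMSO and 5.11% and 5.24% in SF1-8, so it remained the smallest part after treatment. Among the ID genes, ID1 supplied 71.4% to 75.3%, ID3 14.1% to 19.3% and ID2 9.30% to 10.9%, with overlapping groups for ID1, ID2 and ID3.

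**Figure D3:**
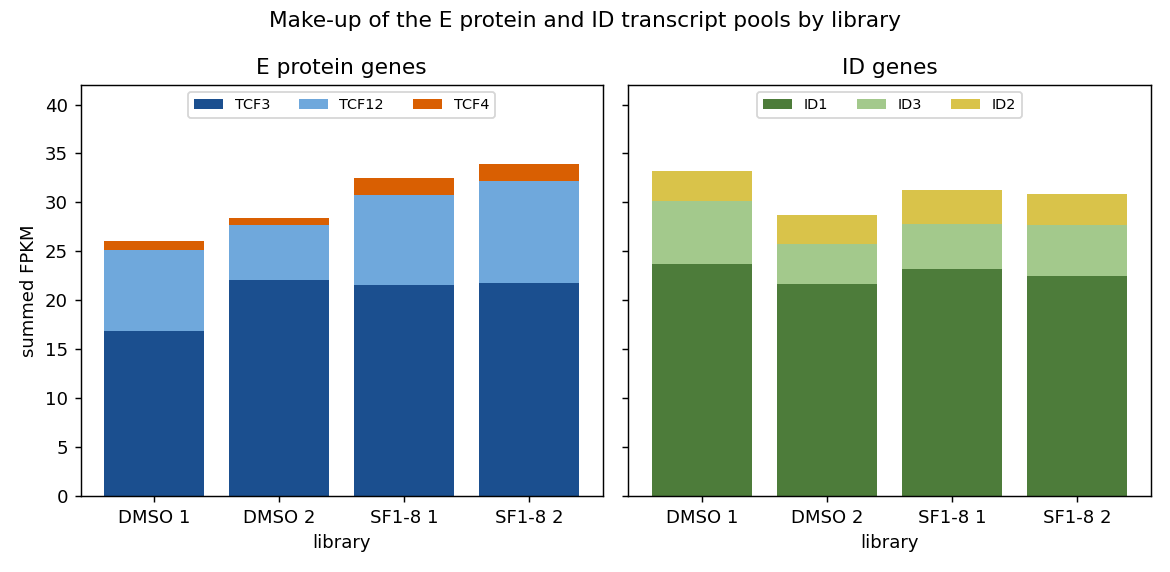
Summed FPKM (vertical axis) of the E protein genes (left) and the ID genes (right) in each of the 4 libraries, stacked by gene. The E protein bars reach 26.0 and 28.4 in DMSO and 32.46 and 33.96 in SF1-8, with TCF4 the thin top layer, and the ID bars lie between 28.8 and 33.2.

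By mean FPKM over the 4 libraries, the order was LYL1 (37.0), ID1 (22.8), TCF3 (20.6), TCF12 (8.37), ID3 (5.09), ID2 (3.16) and TCF4 (1.26). ID1 and TCF3 were neighbours whose ranges overlapped, as were TCF12 and ID3, whereas each other pair of neighbours was separated. Where TCF4 stands in this order depends on the length by which a level is divided. The ratio of count to FPKM, scaled on 479 entries with a single transcript, implied a length of 29338 bases for TCF4, close to the 27828 bases that all its exons cover together in GENCODE 29. The longest coding transcript of TCF4 there has 8343 bases, and 63 coding transcripts start at 62 different sites. For TCF3 the implied length was 6092 bases against a longest coding transcript of 4451, and for ID2 it was 2216 against 2041, so the difference was far smaller.

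With each level divided instead by the longest coding transcript, a comparison added after the data had been seen, TCF4 came to 3.05 and 2.66 in DMSO and 5.83 and 6.26 in SF1-8. On this scale its SF1-8 values lay above those of ID2 (3.29 to 3.71 over the 4 libraries) and within the range of ID3 (4.87 to 7.69), and its DMSO values lay below both. The order of the means became LYL1, TCF3, ID1, TCF12, ID3, TCF4 and ID2, with overlapping ranges for TCF3 and ID1, ID3 and TCF4, and TCF4 and ID2. The fold change between groups does not depend on which length is taken as divisor, since the divisor is the same in every library. The lengths of the transcripts present in each library are not known from values per gene. Whether these lengths differed between the groups, and so entered the fold change, was not tested.

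**Figure D4:**
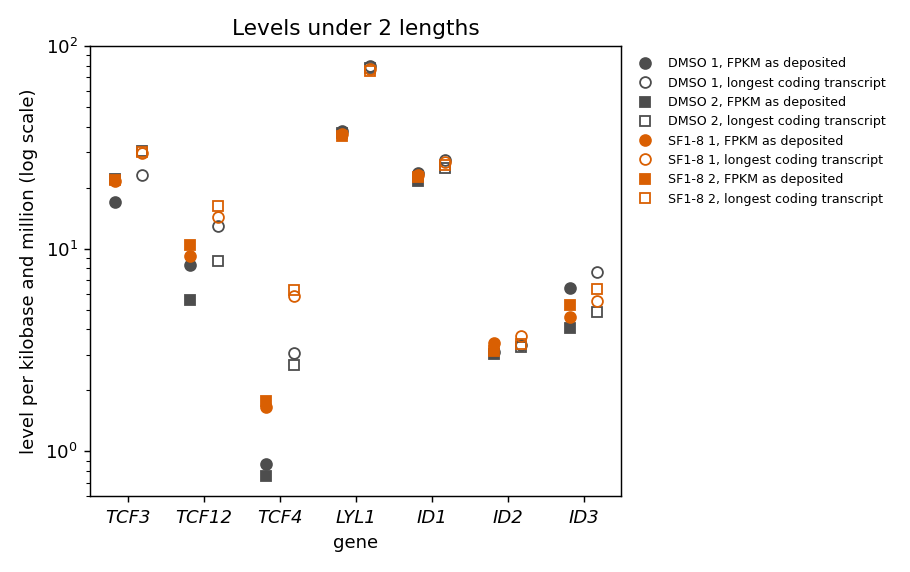
Level of each gene per unit of length and depth (vertical axis, log scale) in each library, as the deposited FPKM (filled) and divided by the longest coding transcript in place of the implied length (open), with DMSO in grey and SF1-8 in orange. TCF4 moves most, from 0.757 to 1.78 to between 2.66 and 6.26, and LYL1 is highest under both.

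The TCF4 profile across the libraries was compared with that of every entry tested, by the distance between centred log2 CPM over the 4 libraries. The 5 nearest were ANP32BP1, a pseudogene of a histone chaperone gene (distance 0.0379), the uncharacterised entries AC137761 and AC130462, the U6 pseudogene RNU6-780P and the antisense RNA SEMA3B-AS1. ANP32BP1 had counts of 24 and 29 in DMSO and 66 and 69 in SF1-8, and the remaining 4 had at most 15 in any library. Of the members, TCF12 was nearest to TCF4, at a distance of 0.613, with 489th place among all entries, and the other 5 lay between 1.00 and 1.17. The distance reflects the size of the differences among these 4 libraries as well as their order.

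The genes around these factors were read from 6 lists with 101 gene symbols, of which 65 could be tested. None passed the adjusted threshold by edgeR, and 4 had an unadjusted p under 0.05, 3 of them higher with SF1-8 and 1 lower. The share of all 26167 entries tested that had an unadjusted p under 0.05 was 4.33%. The lists contain the partners of E proteins in erythroid cells, the BMP-SMAD genes, other helix-loop-helix genes, targets of E proteins in lymphoid cells, coactivators with genes of protein stability, and a list of TCF and LEF genes with CTNNB1 and AXIN2. The TCF and LEF genes share a name with TCF3 and TCF4 but belong to the HMG-box family, and CTNNB1 and AXIN2 belong to the same Wnt pathway.

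Of the 14 genes of the LMO2-LDB1 complex and its partners, 12 were tested, 7 higher and 5 lower, with a median log2 fold change of 0.019 against -0.011 over all entries. GATA1, the erythroid zinc-finger factor, had 76.0 and 79.1 FPKM in DMSO and 75.9 and 75.9 in SF1-8. LDB1, the scaffold of the complex, had 32.2 and 31.5 in DMSO and 29.7 and 29.1 in SF1-8. Both had lower FPKM in both SF1-8 libraries, as had 20.0% of all entries tested. The log2 fold change was -0.0050 for GATA1 (SE 0.0796, adjusted p = 0.998 by edgeR) and -0.088 for LDB1 (SE 0.0680, adjusted p = 0.970 by edgeR). GATA2, a factor of earlier progenitors, had 32.3 and 30.9 FPKM in DMSO and 29.4 and 34.2 in SF1-8, and its groups overlapped.

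The BMP-SMAD list had 21 tested genes of 25, 13 higher and 8 lower, with a median of 0.11. ACVR2A, a type II receptor, had 0.745 and 0.894 FPKM in DMSO and 1.16 and 1.29 in SF1-8, a log2 fold change of 0.60 (SE 0.187, adjusted p = 0.970 by edgeR). ACVR1, a type I receptor, had 1.74 and 1.60 in DMSO and 2.19 and 2.03 in SF1-8, a log2 fold change of 0.37 (SE 0.142, adjusted p = 0.970 by edgeR). For both receptors the SF1-8 libraries lay above the DMSO libraries. The ligand gene BMP2 was listed at 0 in both DMSO libraries and had counts of 16 and 23 in SF1-8, so no fold change is given. The most abundant genes of the list were SMAD5, a receptor-activated SMAD whose entry also named AC009014 (7.56 and 7.76 FPKM in DMSO, 8.93 and 8.51 in SF1-8), ACVR2B, another type II receptor, and SMURF1, a ubiquitin ligase for SMADs. ACVR2B ranged from 6.75 to 7.04 FPKM and SMURF1 from 5.49 to 7.54. None of the 21 passed the adjusted threshold.

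Of 25 E protein targets known from lymphocytes and plasmacytoid dendritic cells, 11 were tested, 5 higher and 6 lower, with a median of -0.065. RAG1, a recombinase of antigen receptor genes, had 0.645 and 0.778 FPKM in DMSO and 0.321 and 0.334 in SF1-8. The groups did not overlap, and the log2 fold change was -1.09 (SE 0.208) with an adjusted p of 0.693 by edgeR. RAG2, its partner, had counts of 15 and 15 in DMSO and 14 and 10 in SF1-8. PTCRA, IGLL1, VPREB1, IRF8 and CXCR5 were listed at 0 in every library. HES1 and NOTCH1, of the Notch pathway, were among the 3 most abundant, HES1 with 7.13 to 8.86 FPKM and NOTCH1 with 6.16 to 7.05. SPIB, which completes them, shares its entry with POLD1 and AC020909, so its 18.8 to 19.7 FPKM cannot be assigned to SPIB.

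Among 23 other helix-loop-helix genes, 8 were tested, 3 higher and 5 lower, with a median of -0.12, and 10 were listed at 0 in every library. The most abundant were SCX, a tendon factor, with 1.43 to 1.88 FPKM, HAND2, a heart and limb factor, with 1.02 to 1.68, and TCF15, a factor of the paraxial mesoderm, with 0.868 to 1.69. All 8 genes of coactivators and of protein stability were tested, 4 higher and 4 lower, with a median of 0.0093. USP1, a deubiquitinase known to stabilise ID proteins, had 30.2 to 32.9 FPKM, and SKP2, a ubiquitin ligase subunit, had 21.5 to 23.7. The entry of the acetyltransferase KAT2A also named AC099811 and RAB5C and had 14.9 and 17.6 FPKM in DMSO and 19.7 and 19.8 in SF1-8. Of the 5 tested genes of the TCF and LEF list, CTNNB1 and AXIN2 included, 4 were higher, with a median of 0.13. CTNNB1, the gene of beta-catenin, had 14.7 to 17.5 FPKM, LEF1 2.91 to 3.44 and TCF7 0.292 to 0.606.

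Markers of fibroblasts and of lymphocytes differed between the groups in these libraries. Of 12 fibroblast genes, 11 were tested. In SF1-8, 9 of these were lower, the median log2 fold change was -2.33, and 5 had an unadjusted p under 0.05, although none passed the adjusted threshold by edgeR. Of all entries tested, 4.33% had an unadjusted p under 0.05. The collagen genes COL1A1, COL1A2 and COL3A1 of this list had already been reported as lower with SF1-8 in these same libraries. The counts of the list are therefore a description and not a test. The summed FPKM of the list was 13.9 and 8.51 in DMSO and 6.28 and 4.41 in SF1-8. Without PDGFRA, whose entry also names FIP1L1, the sums were 10.5 and 5.30 in DMSO and 2.80 and 0.741 in SF1-8. COL1A1, the main collagen gene of fibroblasts, had 5.39 and 2.60 FPKM in DMSO and 1.21 and 0.0982 in SF1-8, and COL1A2 had 2.16 and 1.22 in DMSO and 0.729 and 0.399 in SF1-8. COL3A1, of the same tissue, had 1.92 and 0.697 in DMSO and 0.319 and 0.0570 in SF1-8. The markers DCN, LUM and PDGFRB, each under 0.2 FPKM in every library, made up the rest of the 5 with COL1A2 and COL3A1, and LUM was listed at 0 in both SF1-8 libraries. Lymphocyte markers were also lower in sum, with 5.79 and 5.15 FPKM over 5 genes in DMSO and 4.402 and 4.326 in SF1-8. CD3D, of the T cell receptor complex, made up most of it, with 5.14 and 4.68 FPKM in DMSO and 3.91 and 3.83 in SF1-8, and CD3E had counts of 42 and 25 against 8 and 0. Of the 3 tested genes of this list, 2 were lower and 1 higher, and none had an unadjusted p under 0.05. TCF4 lay on the opposite side to both lists, and the part of such transcripts in the levels of the members was not tested.

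**Figure D5:**
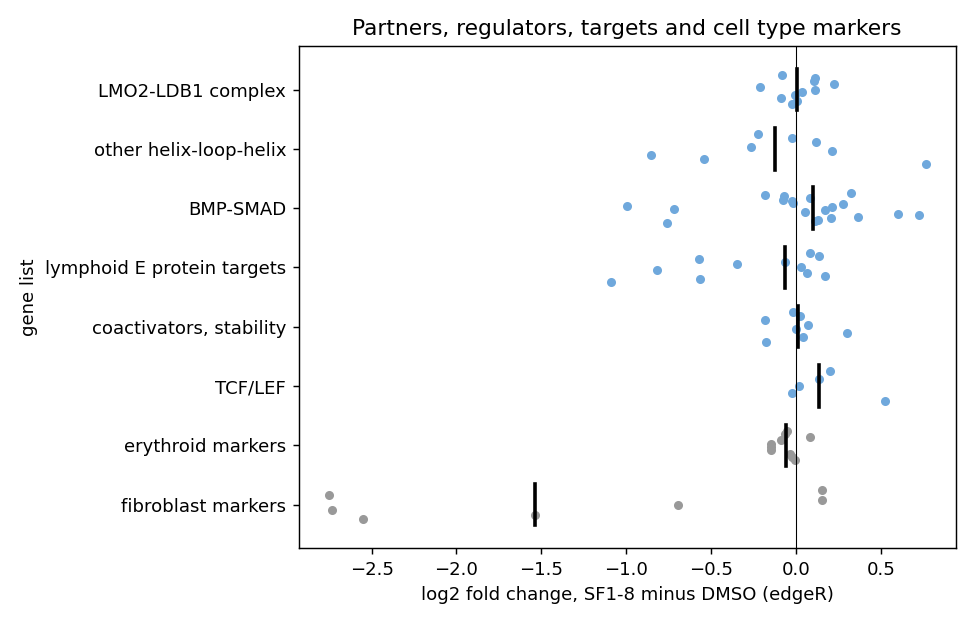
Log2 fold change of SF1-8 over DMSO (horizontal axis) for the tested genes of the 6 lists (blue) and of the erythroid and fibroblast marker lists (grey), 1 point a gene, with the median of the points as a black bar. Genes with a count of 0 in any library, such as BMP2 and LUM, are not drawn, so the fibroblast median of the 7 points drawn is -1.54. The pathway lists centre between -0.12 and 0.13.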

How the data were processed

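The 4 RNA-seq libraries were assigned to DMSO or SF1-8 from the sample labels. The table deposited by the authors holds an FPKM value per gene and library, normalized for length and depth with 0.0001 in place of 0, and a whole-number count that was taken as an estimated count, since the values 4 and 8 were the most frequent ones above 0. The submitters' processing notes name cutadapt, FastQC, Bowtie2, HISAT2, StringTie and hg38 without versions. No test is stated for these data in the sources used here.

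Of 64873 entries, the 2095 without a gene name (0.372% of the counts) were left out. Counts were normalized by TMM, filtered by filterByExpr and tested by the quasi-likelihood test of edgeR 4.0.16 in R 4.3.3 with Benjamini-Hochberg adjustment over all 26167 entries tested. An adjusted p under 0.05 was the threshold. Because a count is not a single read, no counting interval was computed.

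The members and gene lists were chosen with earlier results of these data known. Named were the 7 members, ID4, the 5 entries nearest to TCF4 (log2 CPM with a prior count of 2), and of each list every gene with an adjusted or unadjusted p under 0.05 and the 3 highest by mean FPKM. Other genes named were chosen after their values were seen. The values of 1 marker gene that the list counts include are not reported here. The fit was tested on simulated data. Alternatives were DESeq2 1.42.0, limma 3.58.1 on log2(FPKM + 1) or log2(FPKM + 0.1), other scalings and filters, counts divided by 4, a replicate block and leaving out each library.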

Additional observations from a re-analysis of the deposited data

How the results depend on the processing

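The number of entries past the adjusted threshold depended on the setting, and that of the 6 tested members did not, staying at 0 throughout, as did the number of list genes. In place of 11 entries, DESeq2 gave 143, no filter on low counts 31, and limma on log2(FPKM + 1), log2(FPKM + 0.1) or without a filter 0, with 1424, 1604 and 1754 entries at an unadjusted p under 0.05. Leaving out 1 library gave 0 (without DMSO 1, with 1341 unadjusted) to 30, namely 21 without DMSO 2, 30 without SF1-8 1 and 28 without SF1-8 2. The labels do not say whether equal replicate numbers mark pairs. Across the entries tested, the deviations of DMSO 1 and SF1-8 1 from their group means had a correlation of 0.0165. With the replicate number as a block 0 entries passed, with 971 unadjusted. The remaining settings gave 10 to 12. TCF12 and ID2 kept their direction in all 14 alternatives. TCF4 kept its own as well, but it was chosen on this contrast in these same libraries, so this is a description. The log2 fold change of TCF4 was 0.59 by limma on log2(FPKM + 1), where the pseudocount draws low levels together. Signs turned for TCF3 (-0.039 without DMSO 1), LYL1 (0.012 without DMSO 2 and 0.00085 without SF1-8 2), ID1 (-0.0091 with total library size only) and ID3 (0.27 without DMSO 1 and 0.049 without SF1-8 1), and the cause was not tested. Over the libraries left out in turn the value ran from -0.039 to 0.43 for TCF3, -0.051 to 0.012 for LYL1 and -0.30 to 0.27 for ID3. The ratio of ID to E protein levels was 0.225 in DMSO and 0.171 in SF1-8 with counts in place of FPKM, and 0.888 and 0.701 per length of the longest coding transcript, an alternative added after the data had been seen, since both change the weight of long genes. DMSO 1 was the shallowest library, and each group held 2 libraries, so the spread within each group rests on 1 difference.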
